A study of Mus musculus with 8 samples.

Results

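Germline and meiosis genes are genes whose normal use is in oocytes, spermatocytes and their precursors, and they were examined here in mouse pro-B cells with and without Setdb1. The 33 genes were chosen as a list of symbols, from the germ cell helicase Ddx4 and the axis protein Sycp3 to the piRNA binding protein Piwil2. A gene was measured through the array's probesets (sets of probes that each cover a stretch of 1 gene) whose annotation names that symbol alone. This found 32 of the 33 genes, among 20416 genes on the array. Fkbp6 had no such probeset and was not analysed here. A gene was called dim where its log2 value lay at or under 4.03, which is the 25th percentile over all genes and arrays. Of the 32 genes, 17 were dim in all 8 arrays, 3 were above that value in 1 array, and 12 were above it in at least 2 arrays and entered the tests.

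Pro-B cells are early B-cell precursors of the bone marrow, in which heavy chain gene rearrangement takes place. The samples formed 4 groups of 2 arrays. Bone marrow controls were Setdb1 C/C pro-B cells, labelled Floxed, with no bcl2 transgene, and their counterparts were Setdb1 Δ/Δ cells, labelled Deleted, also with no bcl2 transgene. The 2 culture groups were Setdb1 C/C (Floxed) and Setdb1 Δ/Δ (Deleted) pro-B cells that were bcl-2 transgenic and had been kept in interleukin-7 (IL-7) for 4 days. Culture and transgene always went together, so their effects cannot be told apart. The Cre line, the promoter of the transgene, the age of the mice and the deleted part of Setdb1 are not given in the sources used here. The growth protocol repeats the culture step for the marrow samples as well, while the design text has these cells taken directly from the marrow. No label ties the 2 replicates of a group to different mice or cultures. Their spread may therefore be technical, and the p-values rest on that spread alone.

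Most germline genes are kept silent in somatic cells. DNA methylation of their CpG-rich promoters, histone H3 lysine 9 methylation, and the E2F6 and PCGF6 repressor complexes with their DNA-binding subunits all take part in this silencing in embryonic cells. SETDB1 is a histone H3 lysine 9 methyltransferase, best known for silencing retroviral sequences through TRIM28. In meiosis the products of these genes build the chromosome axis (cohesins, HORMA and SYCP proteins), make and repair programmed DNA breaks (DMC1, TEX15), and process piRNAs that silence transposons (PIWI, Tudor and helper proteins).

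Promoter sequences are shown for the 2 genes that passed the test and for 2 genes that were dim in all 8 arrays, so that the promoters of both kinds can be read side by side. RefSeq (assembly GRCm38.p6) held 36 promoter windows for 29 of the 33 genes, each running from 250 bases before to 50 bases after a transcript start. Some windows of 1 gene overlap. The letters CACGTG, the E-box bound by MGA and MAX among others, were searched on both strands, as were the letters TCCCGC, an E2F-type core. These 2 motifs do not overlap each other in the windows printed. CACGTG was found in 18 of the 36 windows (50%), against 7.15% of all 32851 mouse windows, and in 14 of the 29 genes. TCCCGC was found in 15 windows (41.7%), against 20% of all, and also in 14 genes. The median GC content of the windows was 60.2%, against 52.7% for all promoters, and the median CpG observed-to-expected ratio was 0.74 against 0.38. These are descriptions of the letters only, and a match is not a bound site.

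Each sequence is given 5′ to 3′ on the gene's own strand, with every copy of the 2 motifs, on either strand, in capitals. The Stag3 window lies at chr5:138280259-138280558 on the plus strand and holds CACGTG from base -170 and TCCCGC from base -2, counted from the start site. The 2 Zcwpw1 windows, at chr5:137787081-137787380 and chr5:137787552-137787851 on the plus strand, hold neither. Mael, a piRNA pathway gene, has its window at chr1:166238695-166238994 on the minus strand, with CACGTG from base -223 and TCCCGC from bases -143 and +12. Slc25a31, the germ cell form of the mitochondrial ADP/ATP carrier, has its window at chr3:40708621-40708920 on the plus strand, with CACGTG from base -93 and TCCCGC from base +21.
Stag3: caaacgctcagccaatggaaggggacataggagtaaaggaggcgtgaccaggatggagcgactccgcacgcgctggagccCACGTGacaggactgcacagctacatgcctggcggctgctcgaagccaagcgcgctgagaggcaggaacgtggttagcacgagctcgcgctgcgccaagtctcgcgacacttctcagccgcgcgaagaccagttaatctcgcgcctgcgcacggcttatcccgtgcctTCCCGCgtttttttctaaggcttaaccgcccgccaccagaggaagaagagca
Zcwpw1, upstream start: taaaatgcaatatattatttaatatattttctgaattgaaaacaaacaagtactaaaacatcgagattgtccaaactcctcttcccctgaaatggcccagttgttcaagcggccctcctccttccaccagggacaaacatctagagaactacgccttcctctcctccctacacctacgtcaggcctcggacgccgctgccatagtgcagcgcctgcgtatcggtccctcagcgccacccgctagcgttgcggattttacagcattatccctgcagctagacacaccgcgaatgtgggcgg
Zcwpw1, downstream start: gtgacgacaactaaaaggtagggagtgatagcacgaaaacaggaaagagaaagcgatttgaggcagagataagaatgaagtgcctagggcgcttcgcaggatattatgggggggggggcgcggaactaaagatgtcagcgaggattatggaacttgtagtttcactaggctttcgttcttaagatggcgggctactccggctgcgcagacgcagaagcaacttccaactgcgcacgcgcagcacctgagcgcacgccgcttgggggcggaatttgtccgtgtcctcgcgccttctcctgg
Mael: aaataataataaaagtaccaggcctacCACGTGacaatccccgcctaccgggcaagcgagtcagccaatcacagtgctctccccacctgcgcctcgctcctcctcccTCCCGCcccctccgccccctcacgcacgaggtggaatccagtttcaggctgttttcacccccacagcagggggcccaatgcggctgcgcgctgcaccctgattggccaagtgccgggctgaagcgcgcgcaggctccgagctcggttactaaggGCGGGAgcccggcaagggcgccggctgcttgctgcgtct
Slc25a31: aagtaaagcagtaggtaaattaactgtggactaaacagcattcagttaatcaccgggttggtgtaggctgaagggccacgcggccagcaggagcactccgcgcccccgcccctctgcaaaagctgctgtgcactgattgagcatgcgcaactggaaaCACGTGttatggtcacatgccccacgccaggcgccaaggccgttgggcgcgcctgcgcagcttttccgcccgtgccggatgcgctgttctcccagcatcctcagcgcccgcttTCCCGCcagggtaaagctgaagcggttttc
Slc25a31 and Mael carry both motifs, as Stag3 does, and were dim in all 8 arrays. Zcwpw1 carries neither and was measured above the dim value in every array. The members that are not printed were mixed. Ddx4, Hormad1, Sycp1 and Sycp3, all dim, carry both motifs, while Sycp2, Asz1, Stra8 and Dazl, also dim, carry neither. Among the other tested genes with a window, Tdrd9 and Brdt carry CACGTG only. Tdrd5, Tuba3a, Tex19.1, Rec8 and Dmc1 carry TCCCGC only, and Tex101 carries neither. A link between the motifs and dim values was not tested.

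The arrays were first checked as a whole. The median gene value ran from 5.25 to 5.33 over the 8 arrays, and the 2 arrays of a group correlated over genes at 0.965 to 0.991. Of 14 pro-B markers, 13 were on the array and all 13 were above the dim value in every array. Their mean was 9.53 and 10.13 in marrow controls against 10.35 and 10.24 in deleted marrow cells. In culture it was 9.75 and 9.90 against 9.74 and 9.55. There Vpreb1, Vpreb2, Igll1 and Dntt were higher after deletion, Cd93 overlapped and the others were lower. Rag1 read 9.95 and 9.35 against 7.03 and 6.43. In marrow Vpreb1, Vpreb2, Igll1, Rag2, Dntt, Blnk and Cd93 were higher, Cd79a was lower and the others overlapped. Markers of neutrophils and monocytes were also measured: 14 of 15 were on the array, 11 of them above the dim value in all arrays and none dim in all. Their mean ran from 9.59 to 9.70 in marrow controls and from 9.03 to 9.30 in deleted marrow cells. The members did not move together. In marrow Mpo, Prtn3 and Ctsg were higher in both deleted arrays, Mpo at 9.60 and 11.19 against 11.94 and 11.93. Ly6c2 overlapped there, and the others were lower after deletion. In culture the mean stood at 5.14 and 7.84 in controls and at 6.12 and 8.52 in deleted cells. Both arrays numbered 2 were thus higher. Marrow control 1 stood apart from marrow control 2 in macrophage genes, with Emr1 at 10.03 against 6.65 and Vcam1 at 12.04 against 6.37. Markers of mast cells and basophils (6 of 6 on the array, 2 above the dim value in all arrays) had means of 5.54 and 5.94 in marrow controls, against 4.59 and 4.40 in deleted marrow cells. Markers of stromal and endothelial cells were all on the array (7 of 7) and above the dim value. In culture they averaged 5.78 and 6.10 in controls and 6.38 and 6.89 in deleted cells. In marrow the controls averaged 7.18 and 6.54, overlapping the deleted cells, at 6.79 and 7.05. That mean includes Vcam1, which was high in marrow control 1. Col1a1, Col1a2 and Sparc were higher in both deleted marrow arrays, Sparc at 8.17 and 8.53 against 9.40 and 10.03. Cxcl12, Cdh5, Pecam1 and Vcam1 overlapped there. Markers of T and NK cells (8 of 9 on the array, 4 above the dim value in all arrays) averaged 4.53 and 4.84 in culture controls and 5.35 and 5.31 in deleted cultured cells, and overlapped in marrow, at 5.05 and 4.86 against 4.99 and 4.87. These means include Thy1, which was higher after deletion in both conditions. It read 6.25 and 6.55 against 8.97 and 8.68 in marrow, and 6.89 and 8.23 against 10.90 and 10.80 in culture. No other marker of this list was higher in every deleted array in both conditions. In marrow Cd8a, Ncr1 and Gzma were lower after deletion, Klrb1c was higher, and Cd3e, Cd3g and Cd4 overlapped. Markers of red cells (5 of 7) averaged 4.29 to 5.66. Among them Hbb-b1 read 8.73 and 9.22 in marrow controls and 8.65 and 7.94 in deleted marrow cells. In culture it read 3.32 and 7.49 in controls and 2.58 and 6.79 in deleted cells, again higher in the arrays numbered 2. Epor, Alas2 and Car1 were lower in those arrays than in the arrays numbered 1, and Klf1 hardly differed. The part of these markers in the results was not tested. Setdb1 itself read 7.02 and 6.67 in marrow controls, 6.74 and 6.53 in deleted marrow cells, 6.84 and 6.45 in culture controls and 6.66 and 6.99 in deleted cultured cells. These values overlap, and with the deleted part unknown, a level averaged over its 23 probesets does not check the labels.

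After Setdb1 deletion 2 of the 12 tested germline genes rose over both conditions, Stag3 and Zcwpw1, where 1.48% of all 16050 genes tested were called higher. The list was chosen with earlier results of these data known, so its share beside that of all genes is a description only. Of the 32 measured genes, 17 were dim, which by definition means at or below the dim value in every control and deleted array. Averaged over marrow and culture, Stag3 was 4.57-fold higher and Zcwpw1 1.77-fold higher in deleted cells. Both lie on mouse chromosome 5, and both were higher in every deleted array than in every control array of the same condition. None of the 12 fell, where 1.38% of all genes were called lower. Dmc1 and Tdrd9, the next in size, did not pass the test. In these bulk samples, more cells with a transcript and more RNA per cell cannot be told apart.

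**Figure D1:**
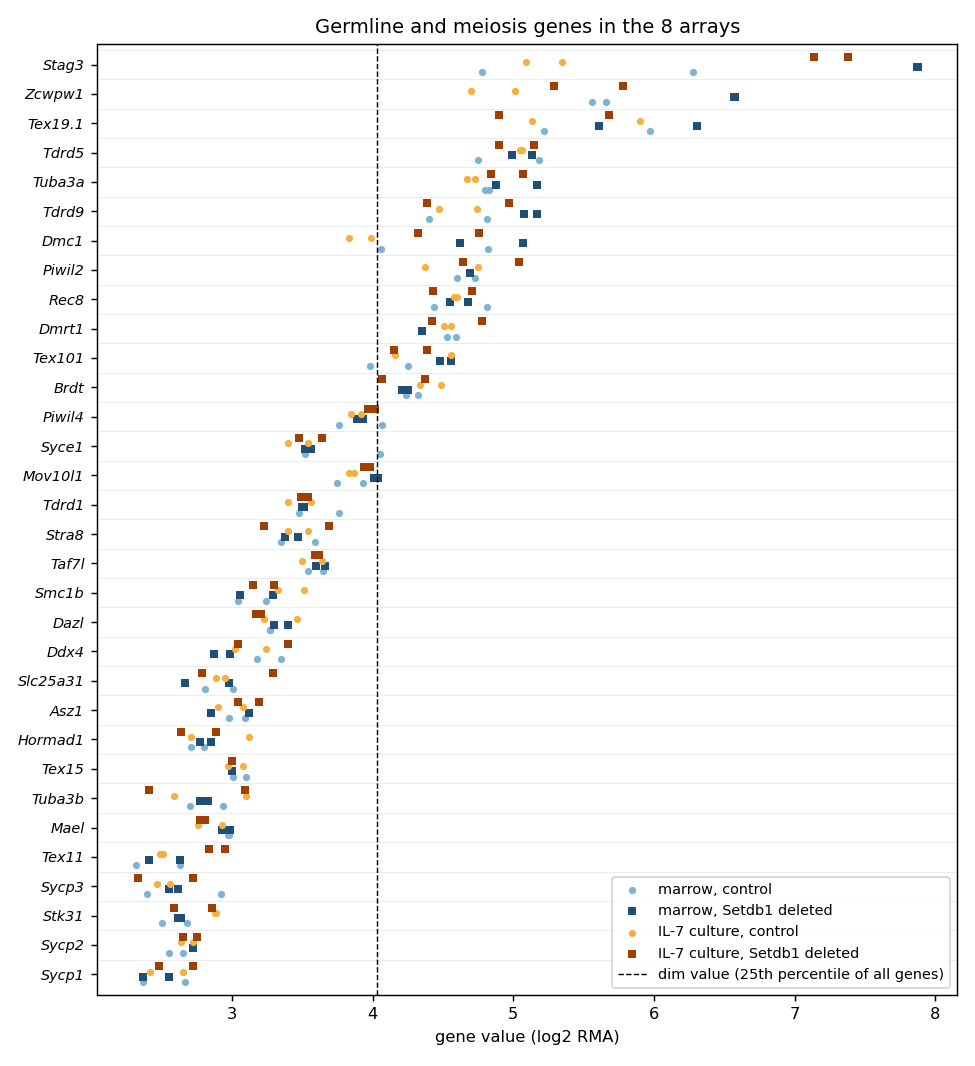
Gene value (log2 RMA, horizontal axis) of the 32 measured germline and meiosis genes in each of the 8 arrays, with 1 point per array, colour for the group and a dashed line at the dim value of 4.03. The deleted arrays of Stag3, which reach 7.88, and of Zcwpw1, which reach 6.58, lie to the right of the controls of the same condition, while the 17 genes from Tdrd1 downward lie between 2.32 and 3.76.

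Stag3 encodes a cohesin subunit that takes the place of STAG1 and STAG2 in meiotic cohesin. Its log2 value was 4.78 and 6.28 in the marrow controls and 7.88 and 7.87 in the deleted marrow cells. In culture it was 5.09 and 5.35 in controls and 7.38 and 7.14 in deleted cells. The 4 deleted arrays lay above all 4 control arrays, and marrow control 2 was the highest of the controls. The group means were 5.53 ± 1.06 and 7.88 ± 0.00 in marrow and 5.22 ± 0.18 and 7.26 ± 0.17 in culture (SD, n = 2). The log2 change was 2.35 (SE 0.42) in marrow and 2.04 (SE 0.42) in culture, and neither passed alone, with adjusted p = 0.111 and adjusted p = 0.0708 by limma. Over both conditions the change was 2.19 (SE 0.30), with a limma adjusted p of 0.0151. The 2 effects differed by -0.31 (SE 0.59, culture minus marrow, adjusted p = 0.932), an estimate that turned to 0.45 without marrow control 1.

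The 8 arrays did not carry this call equally. Left out in turn, the change over both conditions stayed between 1.82 and 2.57, and the limma adjusted p ran from 0.000308 to 0.0943. It passed without marrow control 1 (adjusted p = 0.00175), without marrow control 2 (adjusted p = 0.000308) and without culture control 2 (adjusted p = 0.0393). It missed without either deleted marrow array (adjusted p = 0.0836 and adjusted p = 0.0943), without culture control 1 (0.0689) and without either deleted culture array (0.0537 and 0.0583). Without both culture arrays numbered 2, where neutrophil genes read high, the change was 2.32 and the adjusted p 0.122. The direction was the same in each of these fits.

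The rise of Stag3 was spread along the gene. All of its 34 probesets were tested singly, and 32 were higher after deletion in both conditions. In 29 of them the deleted arrays lay above the control arrays in marrow and in culture alike, a pattern shown by 6.06% of all 176903 probesets tested. Their median change was 2.32 in marrow and 2.10 in culture. Over both conditions 33 of the 34 had an unadjusted p under 0.05 upward, against 5.80% of all probesets. After adjustment over all probesets 1 passed, with a change of 2.96 (limma adjusted p = 0.0486), where 0.0254% of all probesets passed upward and 0.0458% downward. That probeset read 5.13 and 6.05 in marrow controls, 7.76 and 8.29 in deleted marrow cells, 3.51 and 4.19 in culture controls and 7.30 and 7.37 in deleted cultured cells, so its groups did not overlap. A single bright probeset stood still, at 8.11 to 8.82 in all arrays and with a change of 0.05. The probesets of 1 gene share the same RNA, so they are not replicates.

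The other meiotic cohesin genes gave no such values. Rec8, the meiotic kleisin, read 4.44 and 4.81 in marrow controls against 4.68 and 4.55 in deleted marrow cells. In culture it read 4.60 and 4.58 against 4.71 and 4.43. Its arrays overlapped in both conditions, and the change over both was -0.02 (SE 0.13, limma adjusted p = 0.965). Smc1b, the meiotic SMC1 subunit, was dim in all 8 arrays. The somatic cohesin genes and their loaders and releasers, 12 in all, were all tested. None passed over both conditions, where 1.48% of all genes were called higher and 1.38% lower. At an unadjusted p under 0.05, 1 was up (10.4% of all genes) and 2 were down (7.51%). In marrow alone 3 were up (6.64% of all genes) and 1 was down (5.20%). In culture alone 0 were up (7.65%) and 3 were down (7.35%). The median change was 0.13 in marrow and -0.22 in culture, and none passed after adjustment in either. Stag1 read 8.51 to 8.98 and Stag2 7.68 to 8.30 over the 8 arrays. The lowest p of that list over both conditions belonged to Wapal, a cohesin release factor. Wapal read 7.94 and 6.86 in marrow controls and 6.13 and 5.98 in deleted marrow cells. In culture it read 6.33 and 6.80 in controls and 5.33 and 5.86 in deleted cells. Its change over both was -1.16 (SE 0.25, limma adjusted p = 0.0628).

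Zcwpw1 encodes a reader of histone H3 methylated at lysines 4 and 36, the marks that PRDM9 places at meiotic break sites. Its log2 value was 5.56 and 5.66 in marrow controls and 6.57 and 6.58 in deleted marrow cells. In culture it was 4.70 and 5.01 in controls and 5.29 and 5.78 in deleted cells. Deleted and control arrays did not overlap within either condition, but the 2 deleted culture arrays lay on either side of the marrow controls. The group means were 5.61 ± 0.07 and 6.57 ± 0.00 in marrow and 4.85 ± 0.22 and 5.53 ± 0.34 in culture (SD, n = 2). The change was 0.97 (SE 0.20) in marrow and 0.68 (SE 0.20) in culture, with adjusted p = 0.136 and adjusted p = 0.168 by limma. Over both conditions it was 0.82 (SE 0.14) with a limma adjusted p of 0.0284.

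Leaving out arrays one at a time gave changes of 0.70 to 0.95 for Zcwpw1, with limma adjusted p from 0.0312 to 0.14, past the threshold in 4 of the 8 fits. Without both culture arrays numbered 2 the change was 0.78 and the adjusted p 0.0944. Of its 17 probesets 16 were tested singly, and 12 of these were higher after deletion in both conditions. In 9 the deleted and control arrays were separated upward in both (6.06% of all probesets). The largest change was 2.19 (limma adjusted p = 0.0737), in a probeset that read 5.70 and 5.08 in marrow controls and 8.43 and 8.44 in deleted marrow cells, then 4.64 and 5.56 in culture controls and 6.28 and 6.59 in deleted cultured cells. None of the 16 passed after adjustment, and 9 had an unadjusted p under 0.05 upward (5.80% of all probesets).

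**Figure D2:**
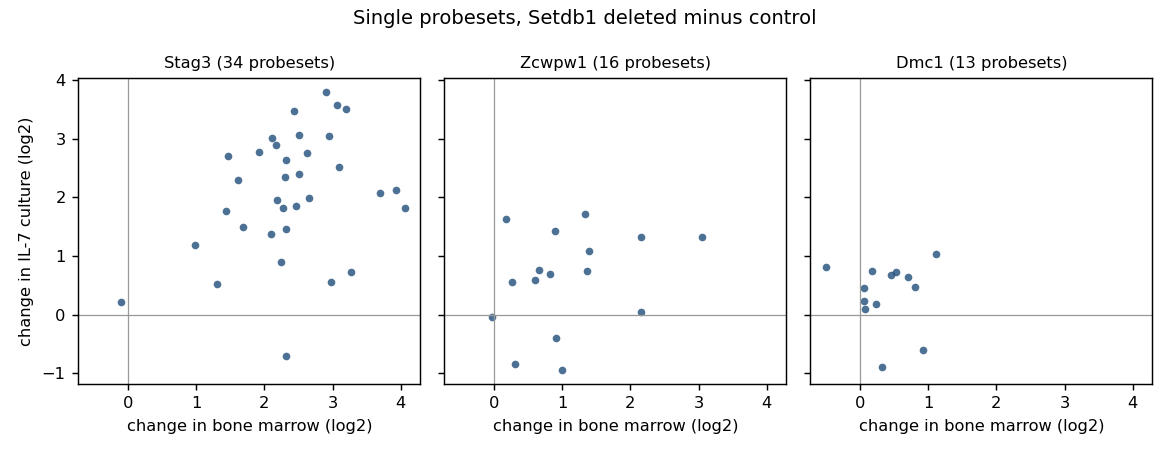
Log2 change after Setdb1 deletion in bone marrow (horizontal axis) against that in IL-7 culture (vertical axis) for the single tested probesets of Stag3, Zcwpw1 and Dmc1, 1 point per probeset. The 34 Stag3 points centre on medians of 2.32 and 2.10, the Zcwpw1 points on 0.90 and 0.72, and the Dmc1 points on 0.32 and 0.48.

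Stag3 and Zcwpw1 lie near each other on chromosome 5, so the genes around them were read as well. These neighbours were chosen after the values were seen. RefSeq places 22 protein-coding genes between the pair, of which 18 were on the array and 15 were tested. None passed over both conditions in limma's test, where 1.48% of all genes were called higher and 1.38% lower. At an unadjusted p under 0.05, 1 was higher (10.4% of all genes), Smok3a with a change of 0.30. The changes of the 15 ran from -1.19 to 0.36 with a median of -0.01. Outside the pair, Tsc22d4 changed by 0.32 (limma unadjusted p = 0.0273, adjusted p = 0.209). Ppp1r35, Mepce, Gpc2 and Zfp157, also outside it, had an unadjusted p over 0.05. Pilra, whose gene model overlaps that of Zcwpw1, changed by -0.72 (limma adjusted p = 0.685), and was highest in marrow control 1. Gpc2, whose gene model overlaps that of Stag3, changed by 0.30 (limma adjusted p = 0.389), and Gal3st4, which also overlaps Stag3, was dim in all arrays at 3.32 to 3.75.

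**Figure D3:**
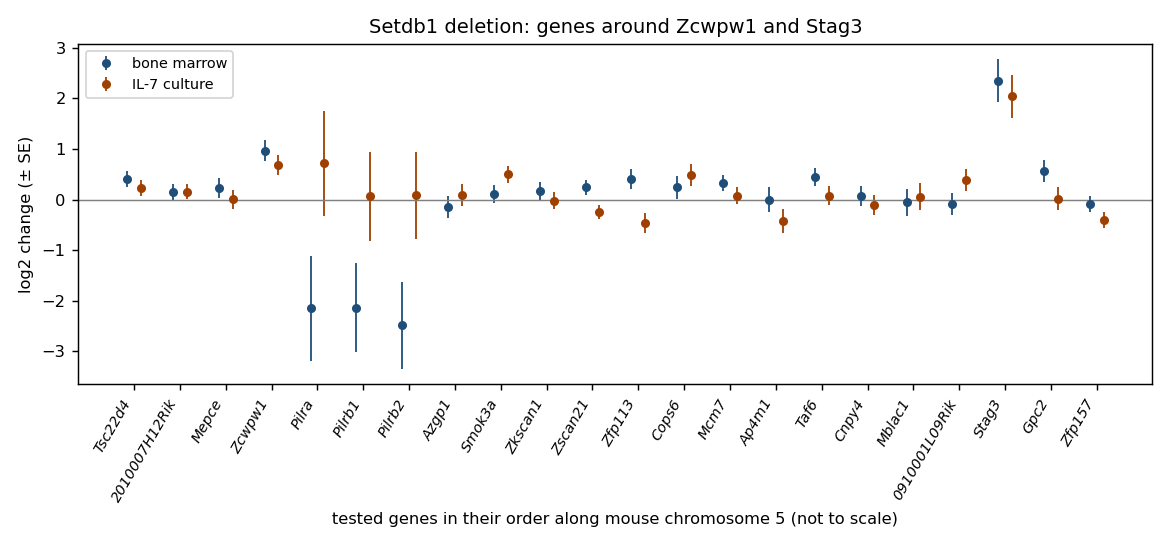
Log2 change after Setdb1 deletion (vertical axis, ± SE of the limma fit) in bone marrow and IL-7 culture for the tested genes from Tsc22d4 to Zfp157, in their order along mouse chromosome 5 and not to scale. Stag3 (2.35 in marrow and 2.04 in culture) stands above the genes between the pair, as Zcwpw1 (0.97 and 0.68) does in marrow, while Pilra, Pilrb1 and Pilrb2 have wide errors, with marrow values under -2 and, for Pilra, 0.72 in culture.

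Dmc1, the recombinase of meiotic break repair, was the third by size. It read 4.06 and 4.82 in marrow controls, 5.07 and 4.62 in deleted marrow cells, 3.99 and 3.83 in culture controls and 4.76 and 4.32 in deleted cultured cells. The groups overlapped in marrow and were separate in culture, where both controls were dim. The change was 0.41 (SE 0.29) in marrow, 0.63 (SE 0.29) in culture and 0.52 (SE 0.20) over both, with a limma adjusted p of 0.239 over both. With 1 array left out, the change over both ran from 0.33 without marrow control 1 to 0.71 without marrow control 2. The culture change ran from 0.41 without deleted culture array 1 to 0.84 without deleted culture array 2. Of its 13 tested probesets 10 were higher in both conditions and none passed. Tex15, which acts in break repair and in piRNA-directed silencing, was dim in all 8 arrays.

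The listed genes of the synaptonemal complex, the protein zipper between paired chromosomes, were dim or nearly so. Sycp1, its transverse filament, and the axis proteins Sycp2 and Sycp3 were dim in all arrays, as was Hormad1, the HORMA domain protein of unpaired axes. Syce1, a central element protein, was above the dim value in 1 array, at 4.05 in marrow control 2. The meiotic entry factor Stra8 and the X-linked meiosis gene Tex11 were dim throughout.

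Among the genes of the piRNA pathway and its Tudor domain helpers, Tdrd9, a helicase, came closest. It read 4.40 and 4.81 in marrow controls and 5.17 and 5.08 in deleted marrow cells, which did not overlap. In culture it read 4.74 and 4.47 in controls and 4.97 and 4.39 in deleted cells, which did. The change was 0.53 (SE 0.23, limma adjusted p = 0.444) in marrow and 0.07 (SE 0.23) in culture, and over both it was 0.30 (SE 0.17, adjusted p = 0.408). The difference between the 2 effects was -0.45 (SE 0.33, adjusted p = 0.78). With 1 array left out, the marrow change ran from 0.32 without marrow control 1 to 0.73 without marrow control 2. The change over both ran from 0.15 without deleted culture array 1 to 0.45 without deleted culture array 2, and the difference from -0.74 to -0.16 without the same 2 arrays. Its 32 tested probesets were uneven, with changes over both from -0.99 to 2.74. Of these 6 had an unadjusted p under 0.05 upward (5.80% of all probesets) and none passed after adjustment. The one with the lowest adjusted p, 0.113 by limma, read 2.10 and 1.84 in marrow controls, 5.48 and 5.84 in deleted marrow cells, 2.15 and 3.22 in culture controls and 4.61 and 3.13 in deleted cultured cells.

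Piwil2, a PIWI protein, read 4.73 and 4.60 in marrow controls, 4.69 and 4.69 in deleted marrow cells, 4.75 and 4.37 in culture controls and 5.04 and 4.64 in deleted cultured cells, with overlap in both conditions. Tdrd5, a Tudor domain protein of the germ granules, read 4.75 and 5.18, then 4.99 and 5.13, in the 2 marrow groups and 5.06 and 5.05, then 5.15 and 4.90, in culture, again with overlap. Tex19.1, which acts against retrotransposons in germ cells and rests on 2 probesets here, read 5.22 and 5.97, then 5.61 and 6.31, in marrow and 5.90 and 5.13, then 5.68 and 4.90, in culture. Its 2 arrays within a group differed by more than the groups did. The changes of these 3 genes over both conditions were 0.15, 0.03 and 0.07, and none passed. Further pathway genes were above the dim value in 1 array only: the helicase Mov10l1 at 4.04 in deleted marrow array 1, and the PIWI protein Piwil4 at 4.07 in marrow control 2. Tdrd1, Mael, Asz1, the RNA helicase Ddx4 and the Tudor domain kinase Stk31 were dim in all 8 arrays.

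The remaining tested genes were transcription and chromatin factors, tubulins and a surface protein. Dmrt1, a transcription factor of the male germ line, read 4.53 and 4.59 in marrow controls and 4.35 and 4.35 in deleted marrow cells, the only tested gene of the 12 whose deleted arrays both lay below the controls there. In culture it read 4.56 and 4.51 against 4.78 and 4.42, which overlapped. Brdt, a testis bromodomain protein, stayed between 4.07 and 4.49 in all arrays. Tex101, a surface protein of germ cells, read 4.25 and 3.98 in marrow controls against 4.56 and 4.48 in deleted marrow cells, and 4.56 and 4.16 against 4.15 and 4.39 in culture. Tuba3a, a testis alpha-tubulin, read 4.83 and 4.80 against 4.88 and 5.17 in marrow and 4.73 and 4.67 against 4.84 and 5.07 in culture. Its deleted arrays lay above the controls in both conditions, by 0.24 over both (SE 0.11, limma adjusted p = 0.333). Tuba3b is a near-identical gene, so probes may not tell the pair apart, and the levels of both are uncertain. None of these 4 passed in any comparison.

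The 17 genes that were dim in all 8 arrays were Dazl, Ddx4, Tex11, Tdrd1, Sycp1, Sycp2, Sycp3, Mael, Asz1, Taf7l, Slc25a31, Stra8, Tuba3b, Hormad1, Stk31, Smc1b and Tex15. Dazl is an RNA-binding protein of germ cell commitment and Taf7l a germ cell form of a TFIID subunit. The values of the 17 ran from 2.32 to 3.76, and the widest range of 1 gene over the arrays was 0.69, for Tuba3b. They rest on 3 to 45 probesets each, 303 together. A dim value is a low signal, not a proof of absence. Taken singly, 110 of these probesets were bright enough to test, and limma called none in marrow, in culture or over both. At an unadjusted p under 0.05 there were 4 up and 3 down over both conditions (5.80% and 5.25% of all probesets), and in either direction 6 in marrow (7.56% of all probesets) and 10 in culture (10.2%).

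**Figure D4:**
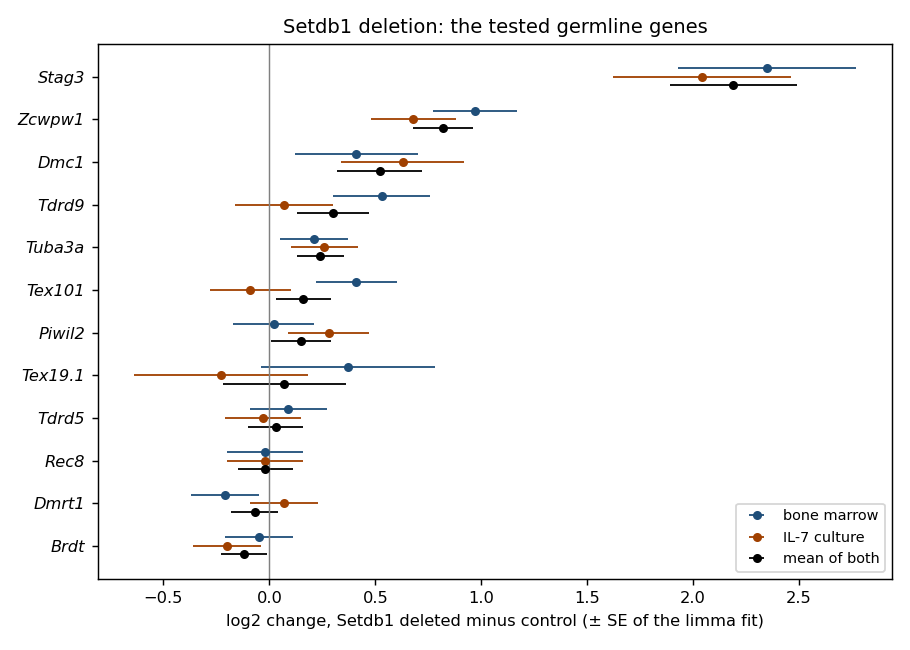
Log2 change after Setdb1 deletion (horizontal axis, ± SE of the limma fit) for the 12 tested germline genes in bone marrow, in IL-7 culture and as the mean of both. Stag3 (2.19 over both) and Zcwpw1 (0.82) lie apart from 0, and the other 10 genes lie between -0.12 and 0.52.

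With 1 array left out, the change over both conditions ran from 1.82 to 2.57 for Stag3 and from 0.70 to 0.95 for Zcwpw1. As given above, neither gene passed in every such fit. At an unadjusted p under 0.05 the count over both was 3 of the 12 higher (10.4% of all genes), Dmc1 being the third, and 0 lower (7.51%). In marrow alone limma called none of the 12, where it called 0.0374% of all genes higher and 0.0935% lower. There 2 had an unadjusted p under 0.05 upward (6.64% of all genes) and 0 downward (5.20%). The deleted marrow arrays lay above the controls for 5 of the 12 (Stag3, Zcwpw1, Tdrd9, Tex101 and Tuba3a), against 27.3% of all genes, and below them for 1 (Dmrt1), against 17.6%. In culture limma also called none of the 12, where 0.735% of all genes were higher and 0.710% lower, and 2 had an unadjusted p under 0.05 upward (7.65% of all genes) and 0 downward (7.35%). There the arrays were separated upward for 4 (Stag3, Zcwpw1, Dmc1 and Tuba3a), against 22.4% of all genes, and downward for 0, against 21.8%. In both conditions at once 3 were separated upward (Stag3, Zcwpw1 and Tuba3a), against 9.31% of all genes, and 0 downward, against 6.26%. The median change of the 12 was 0.29 in marrow, 0.07 in culture and 0.15 over both, where the medians of all genes were 0.04, 0.01 and 0.02. The contrast over both conditions uses the same arrays as the other 2.

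The deletion effect was not shown to differ between marrow and culture for any of the 12 genes, nor for any of the 16050, with 0 calls by limma. At an unadjusted p under 0.05 the count was 0 of the 12, where 3.76% of all genes were higher and 3.82% lower. The 3 lowest p-values belonged to Tex101 (-0.50, adjusted p = 0.689), Tdrd9 and Dmrt1 (0.27, adjusted p = 0.805).

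Culture with the Bcl2 transgene was compared with marrow in control cells to see what the germline genes did apart from the deletion. None of the 12 passed in limma's test, where 0.162% of all genes were higher and 0.143% lower in culture. At an unadjusted p under 0.05 there was 1 of the 12, lower (6.51% of all genes). That was Zcwpw1, at -0.75 (SE 0.20, adjusted p = 0.19), both culture controls lying below both marrow controls. That order held for 3 of the 12, against 19.7% of all genes, and the opposite one for 1, against 22.7%. Dmc1 followed at -0.53 (SE 0.29, adjusted p = 0.495), or -0.15 without marrow control 2 and -0.91 without marrow control 1, and Tex101 at 0.25 (SE 0.19, adjusted p = 0.644). Stag3 differed by -0.31 (SE 0.42, adjusted p = 0.818), its 2 marrow controls lying on either side of the culture controls.

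Other germline genes were read from separate lists, with the same test over all genes. Of 21 further genes of meiotic recombination and synapsis, 20 were on the array and 12 were tested. Over both conditions 1 rose and 1 was called lower, against 1.48% and 1.38% of all genes, and the median change was 0.01. Mei4, which the array names 4930486G11Rik and which helps to form meiotic DNA breaks, read 6.14 and 6.49 in marrow controls, 7.04 and 7.16 in deleted marrow cells, 5.78 and 6.04 in culture controls and 6.86 and 6.83 in deleted cultured cells. It rose by 0.86 (SE 0.12, limma adjusted p = 0.0162), and its groups did not overlap. Tex12, a central element gene of the synaptonemal complex, read 4.10 and 3.89 against 3.40 and 3.47 in marrow and 4.05 and 4.32 against 3.55 and 3.56 in culture. All 4 deleted arrays were dim, so Tex12 entered the test only through 3 of its control arrays. Its change of -0.59 (SE 0.11) had a limma adjusted p of 0.0371, and of 0.0392 with no filter on low values.

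Of 10 further piRNA pathway genes, 7 were tested, and the median change over both conditions was 0.04. Over both conditions 1 was called higher (1.48% of all genes), as was 1 in culture (0.735%). Tdrkh, a Tudor domain protein of mitochondria in germ cells, read 5.03 and 4.39 in marrow controls, 5.07 and 5.17 in deleted marrow cells, 4.41 and 4.13 in culture controls and 5.50 and 5.73 in deleted cultured cells. It rose by 1.35 in culture (SE 0.23, limma adjusted p = 0.041) and by 0.88 over both (adjusted p = 0.0381), with the clearer separation in culture. Of 14 genes of germ cell fate, 8 were tested and none passed, with a median of -0.16 over both conditions. There 0 had an unadjusted p under 0.05, where 10.4% of all genes were higher and 7.51% lower. The lowest p was that of Sohlh1, a spermatogonial transcription factor, at -0.28 (SE 0.13, adjusted p = 0.313), with values from 4.80 to 5.53.

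Of 17 genes of spermatids and sperm, 10 were tested, and the median change over both conditions was 0.00. Clgn, the endoplasmic reticulum chaperone calmegin needed by sperm, read 4.61 and 4.42 in marrow controls and 7.29 and 6.87 in deleted marrow cells. In culture it read 6.90 and 7.54 in controls and 8.40 and 8.83 in deleted cells. Clgn rose by 2.56 in marrow (SE 0.27, limma adjusted p = 0.023) and by 1.98 over both (SE 0.19, adjusted p = 0.00563), while its change in culture was 1.39 (adjusted p = 0.0587). Clgn was the single call of the list after deletion, where 0.0374% of all genes were called higher in marrow and 1.48% over both conditions. It passed over both conditions in all 15 alternative analyses, and in marrow in 4 of the 8 fits with 1 array left out.

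Of 15 repressors and cofactors known to silence germline genes, all were tested. Over both conditions 1 rose and none fell, against 1.48% and 1.38% of all genes. At an unadjusted p under 0.05, 6 were higher (10.4% of all genes), and the median change was 0.15. E2f6, a repressive E2F factor, read 5.43 and 5.34 in marrow controls, 6.28 and 6.06 in deleted marrow cells, 5.93 and 6.07 in culture controls and 6.55 and 6.51 in deleted cultured cells. Its rise of 0.66 (SE 0.10, limma adjusted p = 0.0231) went with groups that did not overlap within either condition. With the mean over probesets in place of the median polish, E2f6 changed by 0.49 (SE 0.12) and missed the threshold (limma adjusted p = 0.0762). Trim28, the corepressor that brings in SETDB1, changed by 0.46 (SE 0.10, adjusted p = 0.0621), and Dnmt1, the maintenance DNA methyltransferase, by 0.35 (adjusted p = 0.144). Single arrays decided several of these calls: left out in turn, Mei4 passed in 3 of 8 fits, Tdrkh in culture in 2, E2f6 in 2 and Tex12 in 1, whereas Clgn over both passed in all 8.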

How the data were processed

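The labels give 8 arrays in 4 groups of 2. The authors deposited log2 values of 241576 probesets, which the submitters' processing notes trace to RMA (background correction, quantile normalisation and probe summary) in Affymetrix Expression Console, version 1.2.0.20. The platform annotation names 1 gene for 212097 probesets, several for 4475 (not used) and none for 25004. A gene's value is the median polish over its single-symbol probesets, which weighs dim and bright stretches alike. Genes above the 25th percentile of gene values (4.03) in at least 2 arrays were tested, 16050 genes; single probesets were tested alike, above 4.16. All 8 arrays entered a single limma fit (limma 3.58.1, R 4.3.3) with a mean for each of the 4 groups, 4 residual and 3.53 prior degrees of freedom; tests were two-sided, Benjamini-Hochberg adjusted over all features tested, threshold 0.05. The script was tested on simulated data. All 32 measured symbols are current in RefSeq GRCm38.p6.

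The members and the lists were chosen with earlier results of these data known. Members were described by status (tested, dim, or above the dim value in 1 array), with full statistics for those past the threshold or the 3 lowest p-values of a contrast. From other lists, members past the threshold, or the lowest p, were named. Stag1, Stag2, Trim28, Dnmt1, the single cell type markers and the chromosome 5 neighbours were named after their values were seen. The alternatives changed the gene summary, centring, filter, variance prior, samples in the fit, replicate block and the arrays left out. Having only 2 arrays in each group limits the precision.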

Additional observations from a re-analysis of the deposited data

How the results depend on the processing

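The number of genes called over both conditions, 459, ran from 39 to 773 with 1 array left out, and was 28 without both culture arrays numbered 2, an analysis chosen after seeing the data. In marrow the 21 calls became 36 with the mean over probesets, 37 with a trended and robust prior, 7 with the replicate block, and 0 with only the groups compared in the fit or without both culture arrays numbered 2 (0 to 570 with 1 array left out). In culture the 232 calls became 115 with the block and 8 without both culture arrays numbered 2 (1 to 429). Culture against marrow in controls had 49 calls, which became 0 with only the groups compared, 28 with the block, 151 with the crossed block and 75 without both culture arrays numbered 2 (9 to 878). The difference of the effects had 0 calls, and 0 to 461 with 1 array left out.

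Of the 12 tested germline genes, 2 passed over both conditions, 0 without both culture arrays numbered 2 and 0 to 2 with 1 array left out. In marrow the count was 0 (0 to 1), and in culture 0 (0 to 1), or 1 with only the groups compared, Stag3 with adjusted p = 0.0189. The 1 probeset called over both became 0 without the filter, 0 with the block and 0 whenever an array was left out, and in marrow 0 to 1 probesets passed. The difference of the Stag3 effects reversed to 0.45 without marrow control 1, within a range of -1.06 to 0.45 with 1 array left out. The cause of these shifts was not tested. With the replicate block, which pairs arrays by number, Stag3 and Zcwpw1 passed over both conditions at adjusted p = 0.024 and adjusted p = 0.0313. The block lost the calls of Clgn in marrow (adjusted p = 0.0652), of Tdrkh in culture and over both (0.0694 and 0.0605) and of Tex12 (0.0674). The deviations of same-numbered arrays correlated at r = 0.05 in marrow, 0.34 in culture, where both arrays numbered 2 read high in neutrophil genes, and -0.12 between the controls, and no label says what a number marks. The numbers were therefore not taken to pair the arrays. Where 1 array was left in a group, it was assumed to vary like the others.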
